A study of Mus musculus with 4 samples.

Results

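Hypoxia and glycolysis response genes are described here in SW620 cells, a line from a human colon carcinoma, after exposure to F5446. The set was defined by gene symbol: VEGFA, NDRG1, GPI and PGK1, joined by those of LDHA, HK2, PDK1, PFKFB3, CA9 and ADM that had a named probe set on the array. LDHA, HK2 and ADM had one, which gave 7 genes of 10 listed, out of 14884 named genes in all. The other 3 (PDK1, PFKFB3 and CA9) had no named probe set and were not analysed here. Each of the 7 had a single named probe set, so taking the brightest one per gene left no choice to make.

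The F5446 group was SW620 cells treated with F5446 at 50 nM, an inhibitor that the labels call selective for the histone methyltransferase SUV39H1, for 2 days. The Ctrl group was untreated SW620 cells, and both groups were grown in RPMI medium with serum. Each group had 2 arrays, called biological replicates without a statement that they came from separate cultures, so errors and p-values cover only the variation among these arrays, which may be technical. The organism field reads mouse, yet SW620 is a human line and the probe sets carry human genes, and the data were treated as human. The labels record no hypoxic exposure and no measurement of oxygen or glucose.

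Cells short of oxygen stabilise the transcription factor HIF, which is otherwise hydroxylated by oxygen-dependent enzymes, bound by the VHL ubiquitin ligase and degraded. HIF switches on genes for blood vessel growth and stress adaptation, such as VEGFA, NDRG1 and ADM, and genes for glucose uptake and glycolysis, such as HK2, GPI, PGK1 and LDHA, which let a cell make ATP without oxygen. Many carcinoma lines run glycolysis at a high rate even with oxygen present, and HIF targets can also be driven by growth factor, nutrient and endoplasmic reticulum stress signals.

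VEGFA, NDRG1 and ADM had higher signal on both F5446 arrays than on both Ctrl arrays, while GPI, PGK1 and LDHA had lower signal on both. HK2, an enzyme gene, was higher. In none of the 7 genes did the groups overlap. Of all genes, 66.2% likewise had groups that did not overlap, 28.4% with F5446 above and 37.7% with F5446 below. VEGFA, NDRG1, GPI and PGK1 were chosen with their response to F5446 already known, so their values are a description and no test is given for them. LDHA, HK2 and ADM entered because a probe set was named for them, and their p-values come from limma's test across all 14884 genes, adjusted by Benjamini-Hochberg with a threshold of 0.05. In that test 40.9% of all genes passed, 18.2% higher and 22.7% lower after F5446, so a gene that passed was not unusual. With each array centred on its median the split was 3420 higher and 2735 lower, against 2714 higher and 3372 lower on the values as deposited.

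**Figure D1:**
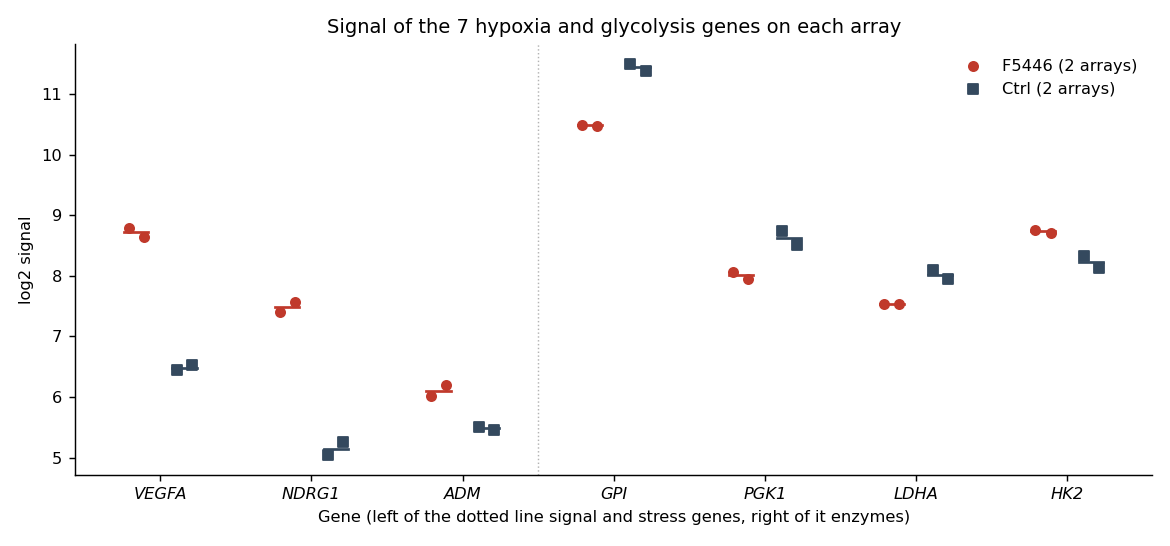
Log2 signal of the 7 genes (x axis) on each array, with red circles for the 2 F5446 arrays, dark squares for the 2 Ctrl arrays and a short line at each group mean. F5446 lies above Ctrl for VEGFA, NDRG1, ADM and HK2 and below it for GPI, PGK1 and LDHA; heights of different genes are not comparable, since each rests on its own probes.

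VEGFA encodes the main secreted growth factor for endothelial cells. Its log2 signal was 8.79 and 8.64 on the F5446 arrays, against 6.45 and 6.52 on the Ctrl arrays. Both F5446 arrays were high, the closest pair of opposite arrays being 2.11 apart on the log2 scale, while arrays of one group differed by at most 0.156. The mean was 8.71 ± 0.11 in F5446 cells and 6.48 ± 0.051 in Ctrl cells (SD, n = 2 each). This is 4.69-fold higher signal, or 2.23 ± 0.093 (SE) in log2 fold change. Only 0.672% of genes had a larger log2 fold change.

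NDRG1 encodes a cytoplasmic protein induced by hypoxia, nickel, p53 and iron depletion, and is often used as a lasting marker of hypoxic response. Its log2 signal was 7.40 and 7.57 on the F5446 arrays, against 5.04 and 5.26 on the Ctrl arrays. Here too both F5446 arrays stood well above both Ctrl arrays, with a smallest gap of 2.14 between groups and a largest of 0.213 within one. The log2 fold change was 2.34 ± 0.13 (SE), or 5.05-fold, and 0.571% of genes had a larger one.

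ADM encodes the vasodilator peptide adrenomedullin. The log2 signal of ADM was 6.01 and 6.20 on the F5446 arrays, against 5.51 and 5.46 on the Ctrl arrays. ADM rose by a log2 fold change of 0.62 ± 0.13 (SE), or 1.54-fold, with limma adjusted p = 0.00411, and was higher on 2 of 2 F5446 arrays. The call was lost without F5446 replicate 2 (log2 fold change 0.53, adjusted p = 0.0601), and the adjusted p ran from 0.00116 to 0.0601 over the 12 alternative settings. The 95% interval of its log2 fold change was 0.32 to 0.92.

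GPI encodes phosphoglucose isomerase, which turns the first phosphorylated hexose of glycolysis into its fructose form and also acts outside cells as a motility factor. GPI had a log2 signal of 10.49 and 10.47 on the F5446 arrays, against 11.50 and 11.38 on the Ctrl arrays. The F5446 arrays were nearly equal, 0.0234 apart, and both were low. The log2 fold change was -0.96 ± 0.055 (SE), a signal 1.94-fold lower in F5446 cells, and 7.93% of genes had a lower one.

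PGK1 encodes phosphoglycerate kinase, the enzyme of the first ATP-yielding step. Its log2 signal was 8.07 and 7.94 on the F5446 arrays, against 8.73 and 8.50 on the Ctrl arrays. Both F5446 arrays were low, but the smallest gap between groups, 0.433, was not far above the gap of 0.222 within Ctrl. The log2 fold change was -0.61 ± 0.095 (SE), a 1.52-fold lower signal, with 14.5% of genes lower still.

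LDHA encodes the lactate dehydrogenase subunit that favours the making of lactate from pyruvate. LDHA had a log2 signal of 7.53 on each F5446 array, against 8.09 and 7.95 on the Ctrl arrays. LDHA fell by 0.49 on the log2 scale (SE 0.087, 95% interval -0.69 to -0.30), or 1.41-fold, with limma adjusted p = 0.00147 and both F5446 arrays below both Ctrl arrays. It passed under all 12 alternatives, with an adjusted p of 0.000592 to 0.0253.

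HK2 encodes hexokinase 2, the inducible, mitochondria-bound enzyme that traps glucose in the cell. On the log2 scale HK2 had a signal of 8.75 and 8.71 on the F5446 arrays, against 8.33 and 8.12 on the Ctrl arrays. HK2 rose by a log2 fold change of 0.50 ± 0.087 (SE, 95% interval 0.31 to 0.70), or 1.42-fold, with limma adjusted p = 0.00125 and both F5446 arrays above both Ctrl arrays. It too passed under all 12 alternatives, with an adjusted p of 0.00027 to 0.0317. Among the 4 enzyme genes HK2, at the entry of the pathway, was thus the one with higher signal in F5446 cells.

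Averaged by class, the 3 signal and stress genes had a mean log2 fold change of 1.73 and the 4 enzyme genes one of -0.39, a difference of 2.12. This difference does not depend on a shift of whole arrays, since centring each array on its median changes both means alike; quantile normalization gave 2.19. Leaving out single arrays gave 1.99 to 2.24. It describes genes chosen with values known and has no test. Among the genes that entered because a probe set was named, the split was mixed. ADM had a log2 fold change of 0.62, and of the enzyme genes HK2 had 0.50 and LDHA -0.49.

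**Figure D2:**
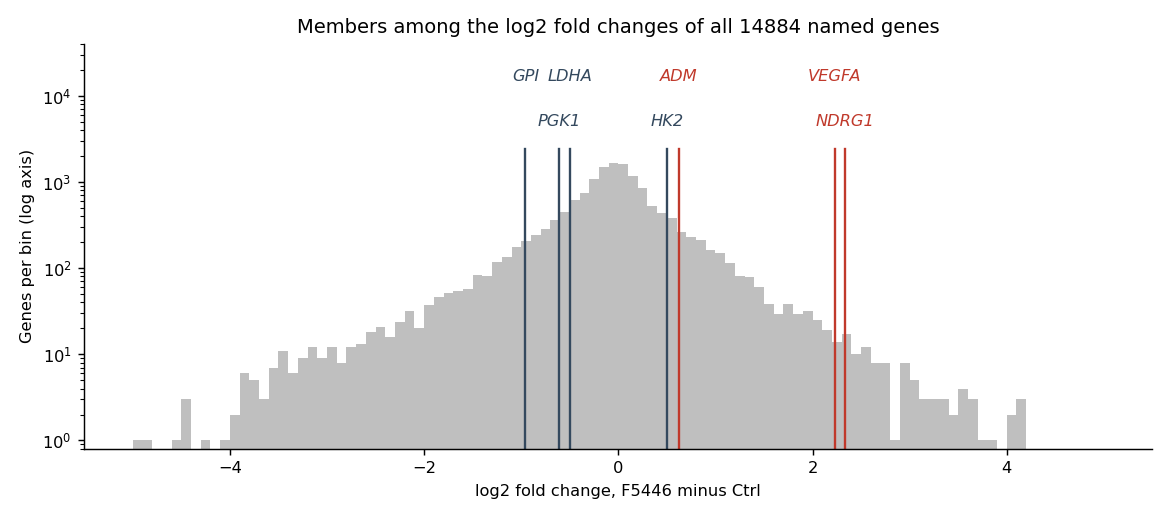
Histogram of the log2 fold change, F5446 minus Ctrl, of all 14884 named genes in bins of 0.1, on a log count axis, with lines at the 7 genes (red for signal and stress genes, dark for enzymes). VEGFA (2.23) and NDRG1 (2.34) lie in the far upper tail, while the other 5, between -0.96 and 0.62, lie on the shoulders.

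The further enzyme genes of glycolysis were taken from a list of every step. Apart from the 4 above, 14 of 29 listed symbols were measured, of which 2 rose, 4 fell and 8 did not pass. That is 14.3% higher and 28.6% lower, near the shares over all genes (18.2% and 22.7%), with a median log2 fold change of -0.10 against -0.05 over all genes. With each array centred the median was 0.03, against 0.08 over all genes. With dim genes left out, 9 genes of the list remained, with a median of -0.34. Of these 2 rose, 5 fell and 2 did not pass. Over all genes that setting gave 2693 higher and 3276 lower of 10263, with a median of -0.05. The median and the shares thus depended on the dim genes, and no direction was tested. No phosphofructokinase, aldolase, enolase or pyruvate kinase gene had a named probe set.

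At the hexokinase step, HKDC1, which encodes a hexokinase-domain protein able to phosphorylate glucose, had a log2 signal of 10.30 and 10.19 on the F5446 arrays, against 7.50 and 7.50 on the Ctrl arrays. HKDC1 rose 6.70-fold (log2 fold change 2.75 ± 0.07, SE, limma adjusted p = 2.37e-08). HK1, the constitutive hexokinase, rose by a log2 fold change of 0.31 ± 0.093 (adjusted p = 0.0248). The HK1 call was lost in 5 of 12 alternatives, among them those without Ctrl replicate 1 (0.111), F5446 replicate 1 (0.100) or F5446 replicate 2 (0.151). HK3, the hexokinase of blood cells, changed by 0.11 ± 0.19 (adjusted p = 0.725). All 3 hexokinase-step genes that passed, HK2 included, were thus higher in F5446 cells.

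Below that step, none of the measured enzyme genes rose. PGAM1, a phosphoglycerate mutase, had a log2 signal of 6.21 and 6.26 on the F5446 arrays, against 7.76 and 8.02 on the Ctrl arrays, and fell 3.15-fold (log2 fold change -1.66 ± 0.11, limma adjusted p = 3.81e-06). PGAM4, a retrocopy of PGAM1 close to it in sequence, fell 1.95-fold (adjusted p = 0.00194), and the signals of these paralogs may not be separable. GAPDH, the dehydrogenase of the middle of the pathway, had a log2 fold change of -0.22 ± 0.077 (adjusted p = 0.0455), lost when any one array was left out (0.115 to 0.183) and, with each array centred, at -0.10 (0.393). TPI1, triose phosphate isomerase, changed by -0.34 ± 0.12 and narrowly missed the threshold (adjusted p = 0.0530, or 0.0392 with dim genes left out).

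At the last step LDHB, the subunit that favours pyruvate, fell by 0.44 on the log2 scale (SE 0.077, adjusted p = 0.0014), close to the fall of LDHA. LDHD, a mitochondrial enzyme of D-lactate, changed by -0.36 ± 0.16 (adjusted p = 0.0994). PGAM2, the muscle mutase, changed by -0.12 (adjusted p = 0.553). The testis-type genes PGK2, LDHC, LDHAL6A and LDHAL6B had signals under 4.42, the median of all values, on every array, and changes of -0.08 to 0.09 with an SE of 0.17 to 0.24.

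**Figure D3:**
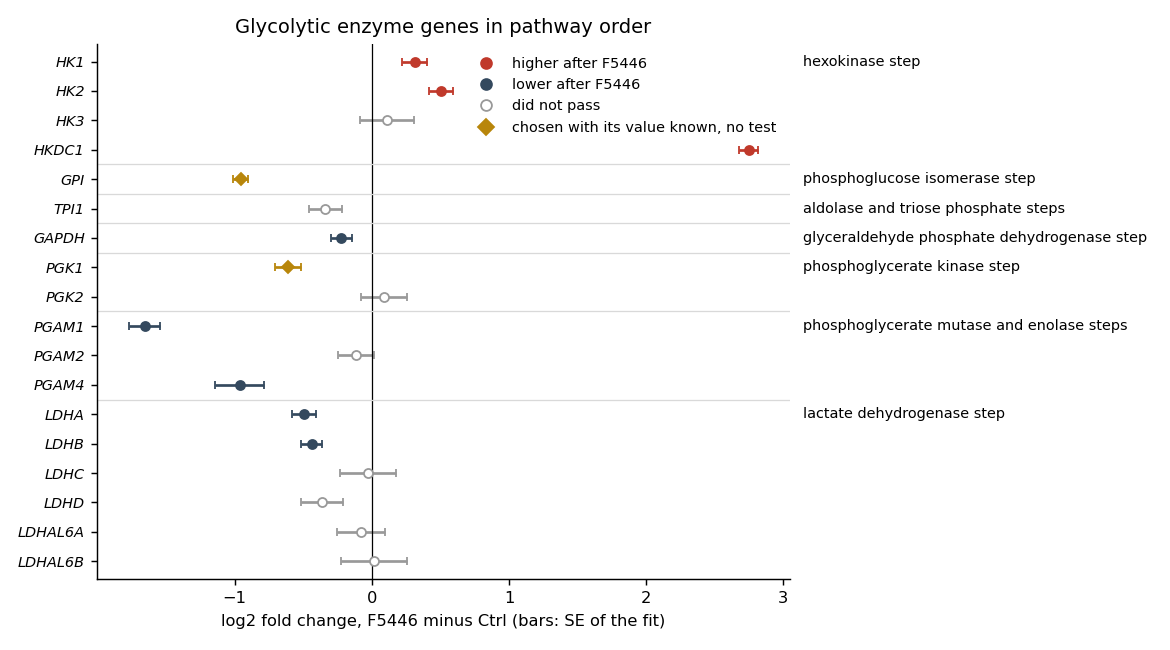
Log2 fold change, F5446 minus Ctrl, of the 18 measured glycolytic enzyme genes from the hexokinase step (top) to lactate dehydrogenase (bottom), with SE bars; red passed higher, dark passed lower, open grey did not pass, and diamonds are the genes chosen with values known. The hexokinase genes HK1, HK2 and HKDC1 are on the right of 0 and the passing genes of later steps on the left.

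Genes around pyruvate were split by role. PDP1, the phosphatase that activates pyruvate dehydrogenase, had a log2 signal of 7.71 and 7.88 on the F5446 arrays, against 5.65 and 6.01 on the Ctrl arrays, and rose 3.91-fold (limma adjusted p = 4.06e-06). PDPR, its regulatory subunit, rose 1.76-fold (adjusted p = 0.000342). Of the 5 measured subunit genes of the complex itself 3 fell: DLAT 2.00-fold, DLD 1.81-fold and PDHB 1.58-fold, with adjusted p-values from 1.31e-06 to 0.000134. PDHA1, the somatic form of the remaining catalytic subunit, changed by -0.19 ± 0.086 and did not pass (adjusted p = 0.114; chosen after its value was seen). PDHA2, the testis form of a subunit, passed as higher (0.55 ± 0.16, adjusted p = 0.0237) with all 4 arrays under 4.42, and the call was lost without Ctrl replicate 1 (0.106), F5446 replicate 1 (0.100) or F5446 replicate 2 (0.111). Of the 9 measured regulators and complex genes 3 rose, 3 fell and 3 did not pass (33.3% each way), with a median of -0.13. Of all genes 18.2% rose and 22.7% fell. No pyruvate dehydrogenase kinase or PFKFB gene was named.

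HIF target genes outside glycolysis were higher more often. Leaving out VEGFA, NDRG1 and ADM, 32 of 46 listed symbols were measured; 16 (50.0%) rose, 4 (12.5%) fell and 12 did not pass, where 18.2% and 22.7% of all genes did. The median log2 fold change was 0.26, against -0.05 over all genes. The list was drawn up with earlier results of these data known, so its counts are a description.

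Among stress and mitophagy genes 5 of 6 rose (83.3%), where 18.2% of all genes did. WSB1, a ubiquitin ligase adaptor, had a log2 signal of 11.18 and 11.15 on the F5446 arrays, against 8.31 and 8.18 on the Ctrl arrays, and rose 7.56-fold (limma adjusted p = 1.05e-08). DDIT4, which encodes the mTORC1 inhibitor REDD1, had 9.20 and 9.12 on the F5446 arrays, against 6.42 and 6.43 on the Ctrl arrays, a 6.67-fold rise (adjusted p = 4.13e-08). BNIP3L, a mitophagy receptor, had 10.62 and 10.79 on the F5446 arrays, against 8.75 and 8.79 on the Ctrl arrays. In all 3 genes the groups lay far apart, as with VEGFA and NDRG1. BNIP3, the closest relative of BNIP3L and a classical hypoxia gene, changed by -0.08 ± 0.17 (adjusted p = 0.767), with signals of 4.18 and 3.98 on the F5446 arrays and 4.22 and 4.10 on the Ctrl arrays, all under 4.42. BNIP3 was chosen after its values were seen.

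Among secreted signals, IGFBP3, a binder of insulin-like growth factors, rose 6.14-fold, with a log2 signal of 8.41 and 7.68 on the F5446 arrays, against 5.31 and 5.54 on the Ctrl arrays. Its F5446 arrays were 0.73 apart, a wide spread, yet both were high. STC2, the glycoprotein stanniocalcin 2, rose 2.47-fold (adjusted p = 5.25e-06). EDN1, which encodes the vasoconstrictor endothelin 1 and is listed as a HIF target beside VEGFA, fell 4.31-fold (adjusted p = 1.83e-05), with 4.39 and 4.91 on the F5446 arrays, against 6.87 and 6.64 on the Ctrl arrays. So 3 of the 8 measured secreted signals rose (37.5%) and 1 fell (12.5%), where 18.2% and 22.7% of all genes did. ANGPTL4, STC1, LEP and EPO did not pass, with log2 fold changes from -0.28 to -0.10, and were chosen after their values were seen. Of these, STC1 and LEP were under 4.42 on every array.

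Of the receptors, MET, the receptor of hepatocyte growth factor, rose 1.94-fold and CXCR4, a chemokine receptor, fell 1.88-fold (adjusted p = 1.22e-06 and 0.000597). Among transcription and chromatin genes 6 of 9 rose (66.7%) and 2 fell (22.2%), where 18.2% and 22.7% of all genes did. The histone demethylase gene KDM3A, whose product removes methyl groups from the same histone residue that SUV39H1 methylates, and JMJD6, an oxygenase gene, rose 2.55-fold each. KDM4C, another demethylase of that residue, and ZNF395 were the 2 that fell, by 0.60 and 0.65 on the log2 scale (adjusted p = 0.000527 and 0.00323). KDM4B, a relative of KDM4C, rose by 0.58 on the log2 scale (adjusted p = 0.0064). KDM4C, ZNF395 and KDM4B were chosen after their values were seen. RORA, a nuclear receptor, rose by a fitted 2.14-fold against Ctrl arrays that were both under 4.42 (adjusted p = 0.00419; without Ctrl replicate 1 0.0545 and without F5446 replicate 2 0.0694), and INSIG2, which restrains sterol synthesis, rose 1.68-fold. Of 4 pH and matrix genes only LOXL2, a lysyl oxidase, passed (0.48 ± 0.15, adjusted p = 0.0282), and the call was lost in 5 of 12 alternatives: with all probe sets tested (0.0878), with the replicate block (0.0522), and without Ctrl replicate 1 (0.0585), Ctrl replicate 2 (0.146) or F5446 replicate 2 (0.219).

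**Figure D4:**
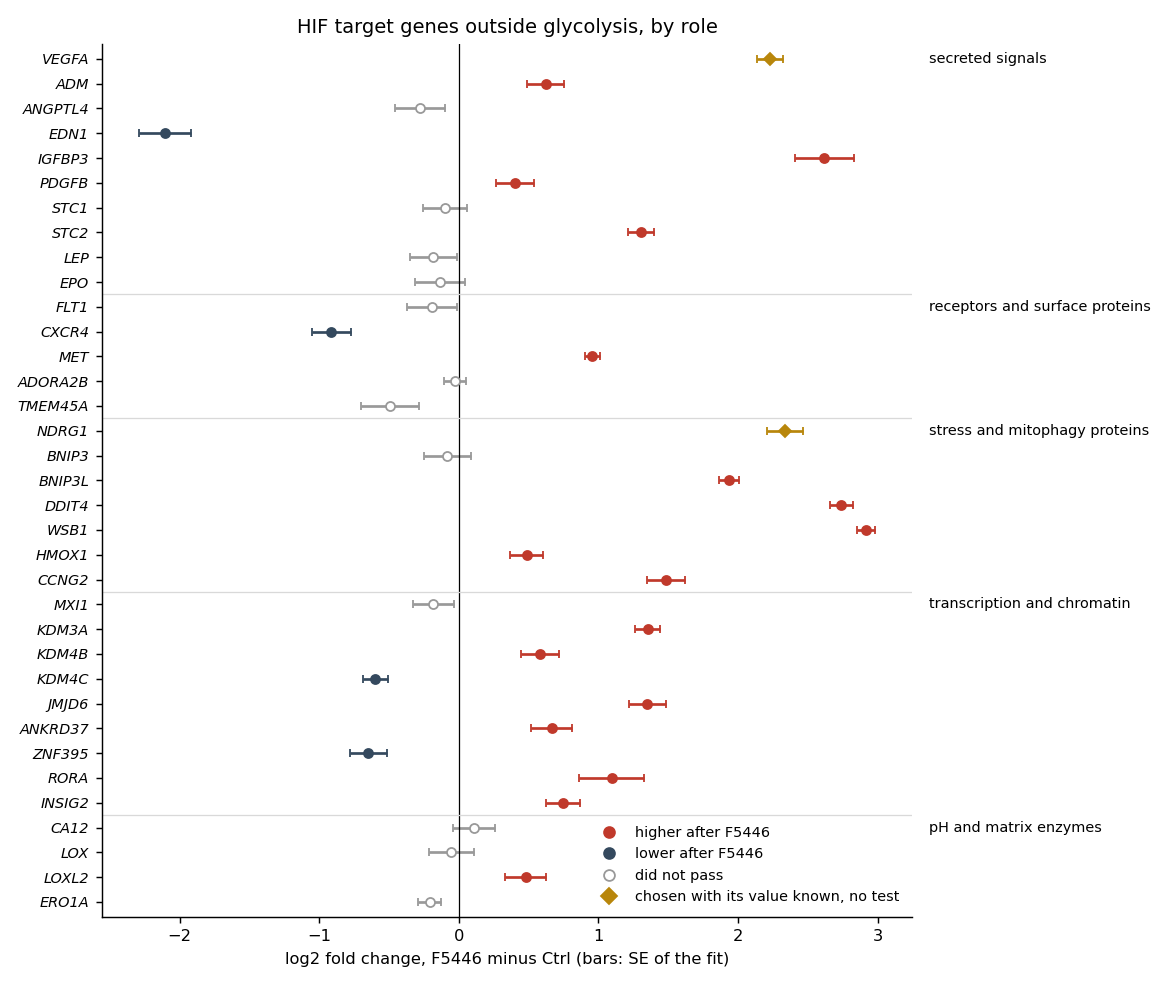
Log2 fold change, F5446 minus Ctrl, of the 35 measured HIF target genes outside glycolysis, grouped by role with SE bars; red passed higher, dark passed lower, open grey did not pass, and diamonds are VEGFA and NDRG1, chosen with values known. Stress and mitophagy genes lie mostly on the right, while secreted signals run from EDN1 at -2.11 to IGFBP3 at 2.62.

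Of the HIF machinery, 10 of 23 listed symbols were measured, and 5 (50.0%) rose, 1 (10.0%) fell and 4 did not pass, where 18.2% and 22.7% of all genes rose and fell. HIF1A, VHL and HIF1AN had no named probe set. ARNT2, an alternative partner subunit of HIF, fell 2.67-fold, with a log2 signal of 5.54 and 5.18 on the F5446 arrays, against 6.80 and 6.75 on the Ctrl arrays. ARNT, the usual partner subunit, had a log2 fold change of 0.23 ± 0.076 (adjusted p = 0.0401), lost in 6 of 12 alternatives, among them those without Ctrl replicate 1 (0.152), Ctrl replicate 2 (0.115) or F5446 replicate 2 (0.285). EPAS1, which encodes HIF-2 alpha, changed by 0.14 ± 0.16 (adjusted p = 0.572).

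The oxygen-sensing hydroxylase genes EGLN1 and EGLN3, both themselves induced by HIF, changed by -0.17 ± 0.12 and -0.43 ± 0.20 (adjusted p = 0.299 and 0.134). SIAH1 and SIAH2, ligases that degrade some oxygen-sensing hydroxylases, rose 1.76-fold and 1.57-fold. CUL2, the scaffold of the VHL ligase, changed by -0.19 ± 0.08 (adjusted p = 0.0859, or 0.0452 after quantile normalization). The coactivator genes CREBBP and EP300, which HIF shares with many other factors, rose 1.91-fold and 1.60-fold (adjusted p = 6.55e-06 and 1.03e-05).

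Of the 8 measured genes of the VEGF family and its receptors other than VEGFA, 2 (25.0%) rose, 1 (12.5%) fell and 5 did not pass. Of all genes 18.2% rose and 22.7% fell. VEGFB, a ligand of the receptor FLT1, had a log2 signal of 6.44 and 6.26 on the F5446 arrays, against 7.18 and 7.20 on the Ctrl arrays, and fell 1.79-fold (limma adjusted p = 0.000197). NRP1, a co-receptor of VEGFA, rose 5.47-fold, with 8.37 and 8.44 on the F5446 arrays, against 5.91 and 5.998 on the Ctrl arrays. NRP2, its relative, rose 1.43-fold (adjusted p = 0.0067; without Ctrl replicate 2 0.0592 and without F5446 replicate 1 0.0936). The tyrosine kinase receptors FLT1, KDR and FLT4, which are markers of endothelium, had log2 signals of 3.16 to 4.24 on all arrays and did not pass. In the NDRG family NDRG3, described as a lactate-binding hypoxia protein, fell 3.89-fold, with 6.96 and 6.93 on the F5446 arrays, against 8.82 and 8.99 on the Ctrl arrays. NDRG2 and NDRG4 did not pass.

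Measured genes of the pentose phosphate pathway and of glycogen synthesis fell or did not pass, where 18.2% of all genes rose and 22.7% fell. Of 9 listed genes of glycogen breakdown and 4 of phosphatase targeting, 0 were measured. In the pentose phosphate pathway 6 of 11 measured genes fell (54.5%) and 0 rose, with a median of -0.54; 1 rose with each array centred on its median. PRPS2 and PRPS1, which make the ribose donor of nucleotide synthesis, fell 2.81-fold and 1.64-fold, H6PD, the first enzyme in the endoplasmic reticulum, 2.51-fold and RPIA, ribose phosphate isomerase, 1.57-fold. In glycogen synthesis 3 of 7 fell and 0 rose: GYS1, glycogen synthase, by 1.94-fold, PGM2 by 1.56-fold and PGM1 by 1.44-fold (adjusted p = 0.0042, or 0.0534 without F5446 replicate 1).

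In serine synthesis and folate-linked metabolism SHMT1 fell 4.64-fold, PSPH 2.34-fold and PSAT1 2.05-fold. For this and the next branches, 18.2% of all genes rose and 22.7% fell. None of the 5 measured genes passed as higher, but PHGDH, the first enzyme of serine synthesis, missed the threshold closely at 0.23 ± 0.082 (adjusted p = 0.0523; chosen after its value was seen). In the hexosamine branch GFPT1, its rate-limiting enzyme, rose 1.84-fold and UAP1 1.65-fold, while GNPNAT1 fell 1.33-fold. GNPNAT1 had 3 named probe sets, and its log2 fold change ran from -0.63 to -0.29 over the 12 alternatives. In gluconeogenesis PC, pyruvate carboxylase, was the 1 of 3 that passed (-0.43 ± 0.14, adjusted p = 0.0366), lost in 8 of 12 alternatives with p-values up to 0.268, among them those without Ctrl replicate 1 (0.237), F5446 replicate 1 (0.268) or F5446 replicate 2 (0.0682).

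Of the TCA cycle and its citrate outlet 7 of 24 symbols were measured, with 2 (28.6%) higher and 4 (57.1%) lower. Of all genes 18.2% were higher and 22.7% lower. ACLY, which turns citrate into acetyl-CoA for lipid synthesis, fell 2.10-fold (limma adjusted p = 3.52e-07) and kept its call throughout. The other named genes were IDH3A, with a log2 fold change of -0.49 ± 0.16 (-0.24 to -0.73 with single arrays left out), DLST with -0.22 ± 0.064, IDH3G with -0.20 ± 0.054 and IDH3B with 0.20 ± 0.062. Each of these 4 calls was lost in 6 or 8 of 12 alternatives. Without F5446 replicate 1 the adjusted p was 0.225 for IDH3A, 0.0958 for DLST, 0.0849 for IDH3G and 0.177 for IDH3B, and without F5446 replicate 2 it was 0.158, 0.135, 0.0942 and 0.107. Without Ctrl replicate 1 it was 0.251 for IDH3A, 0.0923 for IDH3G and 0.0557 for IDH3B, and without Ctrl replicate 2 it was 0.112 for DLST and 0.132 for IDH3B. The count of higher genes was 0 without any one of the arrays, and the count of lower genes 1 to 3.

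By root mean square difference over the 4 arrays, after each gene was centred on its own mean, the genes most like VEGFA were SPRY4 (0.0248 on the log2 scale), TRIB3 (0.0562) and TMEM88 (0.0592). SPRY4, a feedback inhibitor of growth factor signalling, had a log2 signal of 10.05 and 9.95 on the F5446 arrays, against 7.73 and 7.78 on the Ctrl arrays. TRIB3, a pseudokinase of the integrated stress response, had 9.34 and 9.24 on the F5446 arrays, against 6.95 and 6.97 on the Ctrl arrays. Those most like GPI were CDC25A (0.0208), a cell cycle phosphatase, CYC1 (0.0218), a subunit of respiratory complex III, and PAPSS1 (0.0246), which makes the sulfate donor. With 4 arrays in 2 groups, likeness mainly means a log2 fold change of similar size.

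SUV39H1 mRNA had a log2 signal of 7.47 and 7.36 on the F5446 arrays, against 9.12 and 9.17 on the Ctrl arrays. This gene had 2 named probe sets, and the brightest was used. The inhibitor acts on the protein, so the mRNA signal is not a check of its action or of the sample labels. Of 14 colon epithelial markers 11 were measured, of which 2 (18.2%) rose and 6 (54.5%) fell, where 18.2% and 22.7% of all genes did. KRT18 and VIL1 fell 2.16-fold and 14.7-fold, TSPAN8 fell 1.80-fold (its F5446 arrays under 4.42), and CEACAM5 rose 3.80-fold. EPCAM, chosen after its values were seen, fell 1.69-fold, with 10.23 and 10.34 on the F5446 arrays, against 10.97 and 11.11 on the Ctrl arrays. KRT19, also chosen after its values were seen, went the other way and rose 1.40-fold (limma adjusted p = 0.000129). Its log2 signal was 10.56 and 10.55 on the F5446 arrays, against 10.12 and 10.01 on the Ctrl arrays. The summed linear signal of the 11 was 4841.7 and 4893.3 on the F5446 arrays, against 8428.9 and 8467.5 on the Ctrl arrays. This sum is set mainly by the brightest genes, KRT18, EPCAM, VIL1 and KRT19, and its part in the results above was not tested. KRT20 was under 4.42 on every array. Of 16 immune, stromal and endothelial markers 6 were measured, 4 of them under 4.42 on every array, while LUM and LYZ fell by a fitted 8.12-fold and 3.45-fold. LYZ had 2 named probe sets, and its log2 fold change ran from -1.87 to -1.15 over the 12 alternatives. Both F5446 arrays of LUM were under 4.42 too, so its true fold may be larger. The summed linear signal of the 6 was 96.7 and 99.6 on the F5446 arrays, against 285.9 and 275.8 on the Ctrl arrays, and the part of this in the results above was not tested. In bulk RNA a change in the share of cells and a change in RNA per cell cannot be told apart.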

How the data were processed

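The deposited table holds 1 log2 signal per probe set and array, 53617 probe sets on 4 arrays. The log2 scale was inferred, since the highest deposited value, 13.78, lies between 11.09 and 16, the natural logarithm and log2 of the range of a 16-bit scanner. Partek is the one tool named, per the submitters' processing notes; the sources used here do not say how background, scaling and the summary of probes were handled. The platform annotation names 16098 probe sets by 1 symbol each, with 0 carrying several, and leaves 37519 unnamed here. The brightest probe set stood for each of 14884 genes.

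Without rescaling, limma 3.58.1 (R 4.3.3) was fitted to these values (eBayes with an intensity trend, group only, all 4 arrays). Tests are two-sided. The number of arrays limits precision. On simulated arrays of 14884 genes the fit recovered 58% of 100 genes changed by 1 on the log2 scale and 85% of 100 changed by 2, with 3 false calls among 146. The simulated noise was independent between genes, and the share of changed genes was far under the 40.9% that passed in the data. That share sets the cutoff of the adjustment, so these figures do not give the recovery or error rate of the fit to the data.

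Members, the gene lists and the tests were chosen with earlier results of these data known. Named genes are the members and, per list and role, up to 4 passing genes with the largest change and groups that do not overlap, plus glycolysis and HIF machinery genes that did not pass. List counts leave members out and count older symbols as listed. The sequence tables at hand are of the mouse genome and were not used here. The 12 alternatives cover scaling, a dim-gene filter, variance models, probe sets, a replicate block and left-out arrays.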

Additional observations from a re-analysis of the deposited data

How the results depend on the processing

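All 7 genes kept their direction under the 12 alternatives, and LDHA and HK2 their calls. For the direction this was mostly fixed beforehand. Leaving out a single array cannot turn a sign where the groups do not overlap. The dim-gene filter, variance models, probe set settings and replicate block left these log2 fold changes unchanged. Only centring and quantile normalization could have turned a direction. With all 53617 probe sets tested, 6274 were higher and 5483 lower. VEGFA had a log2 fold change of 2.36 with each array centred on its median and 2.32 after quantile normalization, and GPI one of -0.83 with arrays centred. With single arrays left out, ADM ran from 0.53 to 0.72 (weaker without F5446 replicate 2), the difference between signal and stress genes and enzymes from 1.99 to 2.24, and the counts of genes from 2069 to 2431 higher and 2580 to 2891 lower. With the replicate block the counts were 2722 higher and 3342 lower, and ADM, LDHA and HK2 passed (adjusted p = 0.0106, 0.00363 and 0.00222); same-numbered arrays shared little deviation (r = 0.044 across genes), so the number was not taken as a pairing.

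Of 60 other named genes that passed, 47 kept the call throughout, 13 lost it under at least 1 alternative and 0 turned sign. Of 12 that did not pass, 6 turned sign. These sign counts cannot be compared, since passing genes were named only where the groups do not overlap. In such genes leaving out a single array cannot turn the sign. With arrays centred PGAM2 was 0.010, LDHC 0.098 and LDHAL6A 0.049, and with quantile normalization PGAM2 was 0.012. With single arrays left out HK3 ran from -0.12 to 0.34, PGK2 from -0.0034 to 0.18, LDHC from -0.29 to 0.23, LDHAL6A from -0.21 to 0.059 and LDHAL6B from -0.31 to 0.34. Counts in small lists moved by over 1.5 times in 32 of 312 cases. Among them, 1 glycolytic enzyme gene rather than 2 was higher without an intensity trend, with all probe sets tested, and without Ctrl replicate 1, F5446 replicate 1 or F5446 replicate 2. With quantile normalization 2 HIF machinery genes rather than 1 were lower, and without Ctrl replicate 2 or F5446 replicate 1 there was 1 higher gene of the VEGF family rather than 2. Of TCA cycle genes 0 or 1 rather than 2 were higher in 7 alternatives, and 1 or 2 rather than 4 lower in 6. In 7 alternatives 0 rather than 1 gluconeogenesis genes were lower, and in 3 alternatives 1 rather than 0 immune, stromal and endothelial markers was higher. Signals under 4.42 limit what fold change can be seen.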
